A study of Homo sapiens with 9 samples.

Results

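The plasminogen activator system was followed here through 4 genes, PLAU, PLAT, PLAUR and SERPINE2, chosen by name and matched to their Ensembl identifiers in a gene count table of Huh-7 cells. They are 4 of the 60664 genes in the table, and all 4 were among the 17207 genes with enough counts to be tested. Huh-7 is a human hepatocellular carcinoma (HCC) line. The 3 lines compared were the parental cells (WT), cells lacking the small non-coding vault RNA vtRNA1-1 (1-1 KO) and cells lacking its paralog vtRNA1-2 (1-2 KO), with 3 mRNA libraries each. No line was treated with any agent, all were grown to the same confluency in the same serum-containing medium, and each genotype is 1 line. The 1-2 KO line is a single-cell CRISPR/Cas9 clone derived from the WT cells, whereas the WT and 1-1 KO cells came from another laboratory, so a difference between lines cannot be told apart from a difference between clones. The 3 libraries of a line are RNA extractions of that line, so the errors and p-values measure only the spread between them.

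Plasmin is the protease that dissolves fibrin and degrades pericellular matrix. It is cut from its liver-made zymogen, plasminogen, by urokinase (uPA, encoded by PLAU) and by the tissue-type activator (tPA, PLAT). Urokinase works largely at the cell surface, where it is held by a glycolipid-anchored receptor (uPAR, PLAUR). Serpins stop the activators by forming covalent complexes with them that endocytic receptors then clear, and protease nexin-1 (SERPINE2) is a serpin that blocks thrombin as well. In hepatocytes the zymogen, fibrinogen and several plasmin inhibitors are secreted products.

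Of the 4 genes, the mRNA of the inhibitor differed most between the lines. SERPINE2 fell 7.7-fold in 1-1 KO cells and rose 1.64-fold in 1-2 KO cells, and these lines stood 12.6-fold apart. The activator PLAU fell 1.21-fold in 1-2 KO cells, a small change that several other analyses of the same counts did not call. PLAT passed the test in the direct comparison of the knockouts, although their libraries overlapped and several other analyses did not call it either. PLAUR passed in no comparison. Tested in edgeR at an adjusted p of 0.05, 1 of the 4 genes changed in 1-1 KO cells, where 63.4% of all tested genes did, 2 of 4 changed in 1-2 KO cells against a background of 54.4%, and 3 of 4 differed between the knockouts against 65.3%. By direction, 1 gene fell in 1-1 KO cells (30.9% of all tested genes fell and 32.5% rose), 1 rose and 1 fell in 1-2 KO cells (28.2% and 26.2%), and 2 were higher and 1 lower in 1-2 KO than in 1-1 KO cells (33.1% and 32.2%). Both comparisons with WT use the same WT libraries. Some of these shares lie below and some above those of all genes, and 4 genes are few, so the count of changed members is not a result about the system. The size of the SERPINE2 difference is less common: 1.98% of tested genes had a larger log2 difference in 1-1 KO cells and 1.59% between the knockouts, while in 1-2 KO cells 18.8% did.

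The libraries held between 32384469 and 41782387 counts. Replicates of 1 line varied beyond counting noise, with a chi-square statistic between pairs that was 2.04 to 15.6 times its degrees of freedom, and the pairs with 1-2 KO replicate 1 were the most distant, at 14.7 and 15.6. Without that library SERPINE2 was 0.73 (log2) higher in 1-2 KO cells than in WT cells, PLAU was 0.29 lower with an adjusted p of 0.0683 in edgeR, PLAUR was 0.03 higher (0.913) and PLAT was 0.2 higher (0.507). Between the knockouts, leaving it out gave 3.67 for SERPINE2, -0.44 for PLAU, -0.15 for PLAUR and 0.67 for PLAT. The removed RNAs gave no check of the labels, because these mRNA libraries hold a total of 1 count for VTRNA1-1, from a WT library, and 0 for VTRNA1-2. All 8 hepatocyte markers were detected, with a summed level of 12500 to 13200 CPM (counts scaled to library size) in WT, 27800 to 28700 in 1-1 KO and 19100 to 20900 in 1-2 KO cells. In 1-1 KO cells 7 of the 8 rose, where 32.5% of all tested genes did. In 1-2 KO cells 4 rose and 2 fell, where 28.2% and 26.2% of all tested genes did, and the median log2 difference was 0.09. The higher sum in 1-2 KO cells lies in ALB (2530 CPM in WT and 4740 in 1-2 KO) and AFP (1760 and 7420), while TTR and TF fell by 0.64 and 0.22. The part of these genes in the differences below was not tested.

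The 4 genes lie on different chromosomes. In GRCh38 with GENCODE 44, PLAU (ENSG00000122861) spans 73909177 to 73917496 on the plus strand of chromosome 10, and SERPINE2 (ENSG00000135919) spans 223975045 to 224039318 on the minus strand of chromosome 2. An antisense lncRNA, C10orf55, overlaps PLAU. It had 0 counts in WT, 0 to 3 in 1-1 KO and 0 to 2 in 1-2 KO libraries.

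The 250 bases upstream of the annotated starts of SERPINE2 and PLAU are shown because these are the member genes that differed from WT cells in at least 1 knockout. SERPINE2 has an annotated downstream start as well, and gene counts do not say which start the cells used. The last bases of the canonical windows lie in the first exon of another annotated isoform of the same gene. Capitals mark, on either strand, the GC box GGGCGG, the CCAAT box CCAAT and the E-box CACGTG, and the windows read 5′ to 3′ on the gene's strand from GRCh38 (RefSeq GRCh38.p14 for PLAU and the downstream start).
PLAU, canonical start, chr10:73910882-73911131, plus strand: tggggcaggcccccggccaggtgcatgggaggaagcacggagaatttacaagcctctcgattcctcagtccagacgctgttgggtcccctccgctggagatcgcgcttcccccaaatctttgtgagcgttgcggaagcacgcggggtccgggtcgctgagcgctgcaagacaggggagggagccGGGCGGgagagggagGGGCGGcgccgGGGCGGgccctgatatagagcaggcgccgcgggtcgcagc
SERPINE2, canonical start, chr2:224039287-224039536, minus strand: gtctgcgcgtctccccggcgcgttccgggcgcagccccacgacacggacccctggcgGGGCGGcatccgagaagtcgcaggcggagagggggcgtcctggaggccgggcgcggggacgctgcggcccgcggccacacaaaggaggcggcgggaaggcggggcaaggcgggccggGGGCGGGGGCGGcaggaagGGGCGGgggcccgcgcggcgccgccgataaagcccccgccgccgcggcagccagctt
SERPINE2, downstream start, chr2:224031479-224031728, minus strand: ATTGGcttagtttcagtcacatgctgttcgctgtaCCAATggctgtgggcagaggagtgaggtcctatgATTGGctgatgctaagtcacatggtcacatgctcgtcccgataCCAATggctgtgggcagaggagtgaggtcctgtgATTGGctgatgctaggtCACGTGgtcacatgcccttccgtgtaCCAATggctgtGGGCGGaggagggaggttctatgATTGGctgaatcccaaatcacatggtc
The canonical SERPINE2 window is 80.8% G and C, with 40 CpG dinucleotides and 4 GC boxes. The PLAU window is 68.8% G and C, with 24 CpG dinucleotides and 3 GC boxes. The downstream SERPINE2 window differs from both in composition, at 53.2% G and C with 6 CpG dinucleotides, and holds 7 CCAAT boxes on alternating strands, 1 E-box and 1 GC box. Over 35116 RefSeq windows of the same length the median was 58% G and C, 42.6% held a GC box, 32% a CCAAT box and 6.34% an E-box. Neither TGANTCA, the AP-1 letters found in 6.57% of windows, nor the TATA box TATAAA, found in 10.7%, is present in any of the 3. A match is a description of letters and not a binding site.

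PLAU encodes urokinase, the activator of the cell surface. Its mRNA level was 3.97, 3.33 and 3.93 CPM in the WT libraries, 4.21, 4.01 and 4.24 in 1-1 KO and 3.11, 2.84 and 3.29 in 1-2 KO. All 1-1 KO libraries lay above WT and all 1-2 KO libraries lay below, the nearest pair of WT and 1-2 KO libraries being 3.33 and 3.29 CPM. Groups that do not overlap in this way were common, at 68.9% of tested genes for 1-1 KO and 58.4% for 1-2 KO cells against WT and 69.8% between the knockouts. The means were 3.74 ± 0.357 (SD, n = 3 libraries) in WT, 4.15 ± 0.123 in 1-1 KO and 3.08 ± 0.23 in 1-2 KO. The log2 difference was 0.15 (SE 0.11, 95% interval -0.08 to 0.38) for 1-1 KO cells, which did not pass the test (adjusted p = 0.229, edgeR). In 1-2 KO cells PLAU fell by 0.28 (SE 0.11, adjusted p = 0.0424, edgeR), and the interval, -0.51 to -0.05, ended close to 0. This call was lost in both DESeq2 fits (adjusted p = 0.144 with all 9 libraries and 0.241 with the lines compared alone) and when WT replicate 1, WT replicate 3, 1-2 KO replicate 1 or 1-2 KO replicate 2 was left out, with log2 differences between -0.36 and -0.22 over the 6 omissions. Relative to the 50 genes tested around it on chromosome 10, whose median difference was -0.22, the PLAU difference was -0.06 (adjusted p = 0.691, edgeR). The knockouts differed from each other more firmly, with PLAU 1.35-fold lower in 1-2 KO than in 1-1 KO cells (log2 -0.43, SE 0.11, adjusted p = 0.00261, edgeR).

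PLAT encodes tPA, the activator of fibrinolysis in blood, for which endothelial cells are a main source. The gene (ENSG00000104368) spans 42174718 to 42207709 on the minus strand of chromosome 8. It was the rarest of the 4 mRNAs, with 24 to 47 counts per library. The level was 1.06, 0.72 and 1.05 CPM in WT, 0.614, 0.827 and 0.588 in 1-1 KO and 0.807, 0.979 and 1.17 in 1-2 KO. WT and 1-2 KO libraries covered overlapping ranges, and 1-1 KO replicate 2 lay above WT replicate 2 and above 1-2 KO replicate 1. At a mean count of this size, counting alone gives a coefficient of variation of 17.1% in a WT library. The log2 difference was -0.47 (SE 0.23, interval -0.97 to 0.03, adjusted p = 0.0903, edgeR) for 1-1 KO cells and 0.07 (SE 0.22, interval -0.4 to 0.54, adjusted p = 0.809) for 1-2 KO cells. PLAT was 1.45-fold higher in 1-2 KO than in 1-1 KO cells (log2 0.54, SE 0.22, interval 0.06 to 1.02, adjusted p = 0.0478, edgeR), and this call was lost without 1-1 KO replicate 1 (0.47), 1-1 KO replicate 3 (0.45), 1-2 KO replicate 2 (0.54) or 1-2 KO replicate 3 (0.4). It was also lost in both DESeq2 fits (adjusted p = 0.179 with all 9 libraries and 0.221 with the lines compared alone), and in edgeR with no filter (0.0532), with the lines compared alone (0.0532), relative to neighbouring genes (0.0588) and with the replicate block (0.0728). Against WT, the 1-1 KO difference passed without WT replicate 2 (-0.64, adjusted p = 0.0356) or without 1-1 KO replicate 2 (-0.64, 0.0498). The sign of the 1-2 KO difference turned without WT replicate 2 (-0.09) or without 1-2 KO replicate 3 (-0.07). With such intervals a PLAT difference as small as that of PLAU was not detectable at this depth.

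PLAUR (ENSG00000011422) encodes the urokinase receptor and spans 43646095 to 43670547 on the minus strand of chromosome 19. The pseudogene RN7SL368P inside it had 0 counts in all 9 libraries. PLAUR itself had 2.89, 2.64 and 1.9 CPM in WT, 3.19, 2.31 and 2.99 in 1-1 KO and 3.13, 2.46 and 2.65 in 1-2 KO. The lines overlapped, and the lowest value was that of WT replicate 3, the shallowest library. The means were 2.48 ± 0.513, 2.83 ± 0.462 and 2.75 ± 0.348 CPM (SD, n = 3 libraries each). The log2 difference from WT was 0.18 (SE 0.17, interval -0.18 to 0.54) in 1-1 KO and 0.14 (SE 0.17, interval -0.22 to 0.5) in 1-2 KO cells, and that between the knockouts was -0.04 (SE 0.16, interval -0.39 to 0.31), with adjusted p of 0.366, 0.514 and 0.835 in edgeR. The last interval is wide enough to hold a difference as large as that of PLAU between 1-2 KO and WT cells, in either direction. Without WT replicate 3 the 1-2 KO difference was -0.03, and without 1-1 KO replicate 1 or 1-2 KO replicate 2 that between the knockouts was 0.05 or 0.03.

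**Figure D1:**
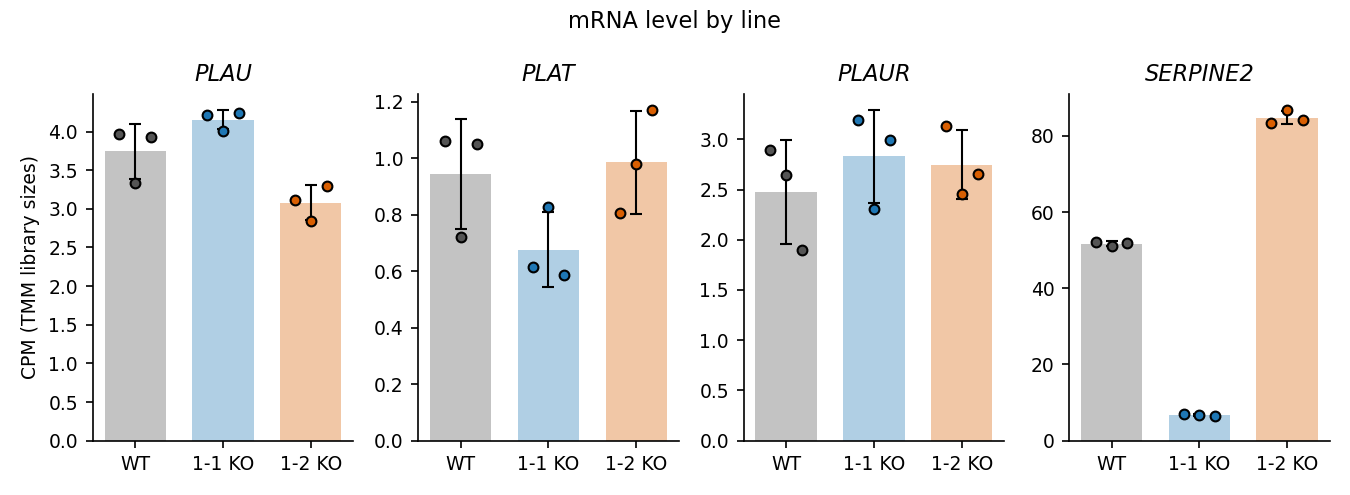
Level of each mRNA in CPM (vertical axes, each with its own scale starting at 0) in the libraries of WT cells and both knockouts; bars are means, error bars SD and points the 3 libraries of a line. SERPINE2 runs from 6.71 CPM in 1-1 KO to 84.8 in 1-2 KO cells with libraries close together, whereas the libraries of PLAUR overlap across all lines.

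SERPINE2 encodes protease nexin-1, an inhibitor of thrombin, urokinase and tPA. Its level was 52.1, 51 and 52 CPM in WT, 7.02, 6.61 and 6.5 in 1-1 KO and 83.4, 86.8 and 84.2 in 1-2 KO. The lines were separated with no overlap, with 1-1 KO lowest, WT between and 1-2 KO highest, and each line's libraries lay close together. The means were 51.7 ± 0.61, 6.71 ± 0.274 and 84.8 ± 1.74 CPM (SD, n = 3 libraries each), resting on 1640 to 2073 counts in WT, 265 to 297 in 1-1 KO and 3376 to 3515 in 1-2 KO libraries. SERPINE2 fell by 2.94 on the log2 scale in 1-1 KO cells (SE 0.05, interval -3.05 to -2.84, adjusted p = 7.35e-15, edgeR). In 1-2 KO cells it rose by 0.71 (SE 0.04, interval 0.63 to 0.8, adjusted p = 1.77e-09, edgeR). Compared directly, the knockouts differed by 3.66 (SE 0.05, interval 3.56 to 3.76, adjusted p = 4.31e-16, edgeR). Its 50 neighbours on chromosome 2 had median differences of -0.17 in 1-1 KO and 0 in 1-2 KO cells.

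**Figure D2:**
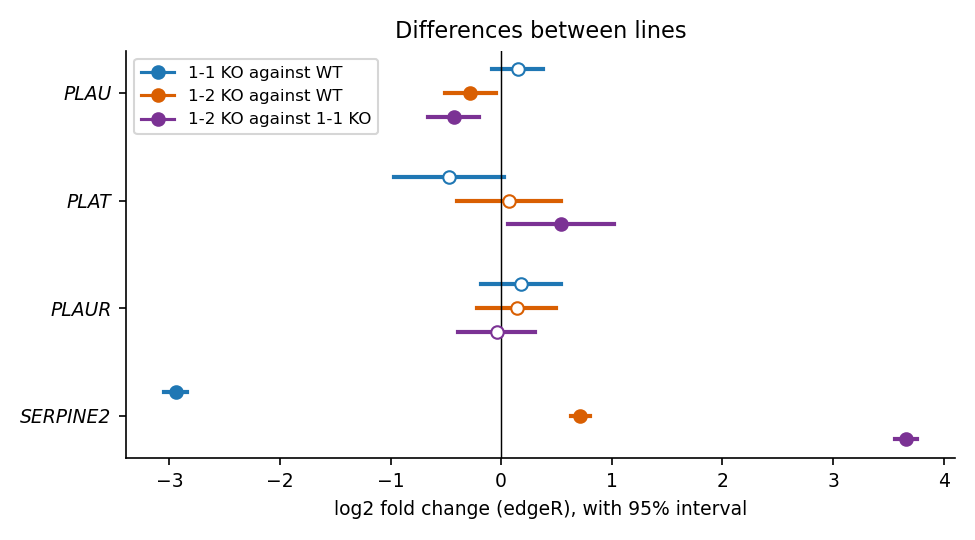
Fitted log2 fold change (horizontal axis, edgeR) of PLAU, PLAT, PLAUR and SERPINE2 in the comparisons of each knockout with WT and of 1-2 KO with 1-1 KO; lines are 95% intervals and filled points passed an adjusted p of 0.05. SERPINE2 lies at -2.94, 0.71 and 3.66, and every other value lies between -0.47 and 0.54.

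Levels of different genes can be set side by side only per transcript length. Over the union of each gene's exons, SERPINE2 was the most abundant of the 4 mRNAs in WT cells at 5.77 RPKM, which is CPM per kilobase of transcript, followed by PLAU at 1.27, PLAUR at 0.556 and PLAT at 0.121. In 1-2 KO cells the order by exon union was the same, at 9.47, 1.04, 0.616 and 0.127. In 1-1 KO cells PLAU led at 1.41, ahead of SERPINE2 at 0.749, PLAUR at 0.635 and PLAT at 0.0871. With the length of the canonical transcript, which is much shorter than the exon union for SERPINE2, PLAT and PLAUR, the 1-1 KO levels became 3.01 ± 0.123 for SERPINE2, 2.07 ± 0.337 for PLAUR, 1.77 ± 0.0526 for PLAU and 0.221 ± 0.0427 for PLAT (SD, n = 3 libraries). PLAUR and PLAU were then not separated in WT cells, at 1.81 ± 0.375 and 1.6 ± 0.152 RPKM, and in 1-2 KO cells PLAUR, at 2.01 ± 0.254, lay above PLAU, at 1.31 ± 0.098, in every library. So PLAT was lowest with either length in every line, while the order of PLAU and PLAUR, and that of PLAU and SERPINE2 in 1-1 KO cells, depended on the length used.

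The ratio of an activator to SERPINE2 within a library does not depend on sequencing depth. By exon union, the level of PLAU relative to SERPINE2 was 0.231, 0.199 and 0.23 in WT, 1.82, 1.84 and 1.98 in 1-1 KO and 0.113, 0.0993 and 0.119 in 1-2 KO libraries. The lines did not overlap, and the mean log2 ratio went from -2.19 in WT to 0.91 in 1-1 KO and -3.18 in 1-2 KO cells. By canonical length the mean ratios were 0.0688 ± 0.00578, 0.588 ± 0.0276 and 0.0345 ± 0.00309 (SD, n = 3 libraries), below 1 in all lines, so the position relative to 1 depends on the length while the differences between lines do not. PLAT relative to SERPINE2 was 0.021 ± 0.00404 in WT, 0.116 ± 0.024 in 1-1 KO and 0.0134 ± 0.00242 in 1-2 KO cells by exon union. The 1-1 KO libraries lay apart, whereas WT and 1-2 KO cells nearly touched, at 0.0163 in WT replicate 2 and 0.016 in 1-2 KO replicate 3. Both activators have the same denominator here, and most of the difference in each ratio is that of SERPINE2. These are ratios of mRNA and not of active protein. SERPINE2 is not the only inhibitor of urokinase: SERPINA5, described below, was higher by RPKM in every line and rose in 1-1 KO cells.

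**Figure D3:**
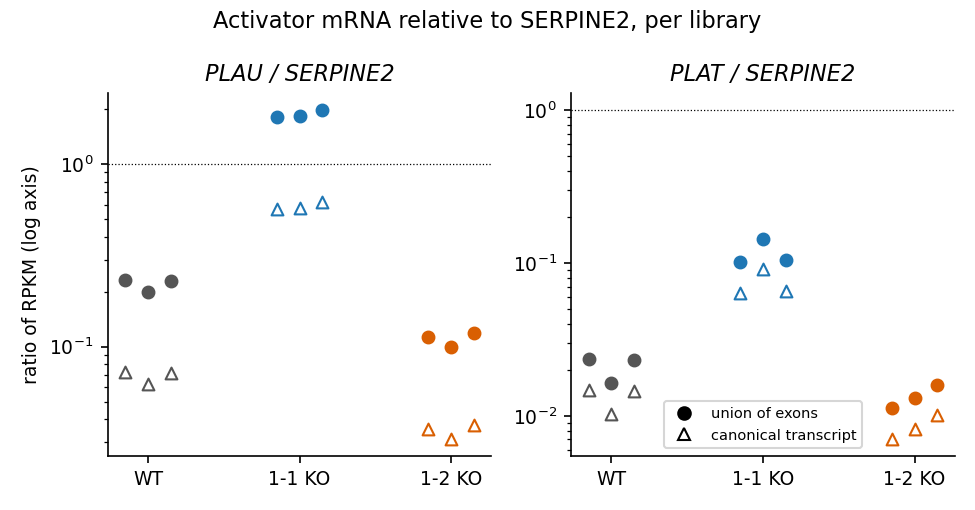
Ratio of PLAU (left) and PLAT (right) to SERPINE2 in RPKM, on a log axis, in each library of WT cells and both knockouts; circles use the exon union, triangles the canonical transcript, and the dotted line marks a ratio of 1. The 1-1 KO libraries lie highest and the 1-2 KO libraries lowest with either length, and PLAU to SERPINE2 exceeds 1 in 1-1 KO cells by exon union only.

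The patterns of the 4 genes across the 9 libraries were compared by a distance that also grows with the size of a gene's differences. It does not tell whether genes move in the same direction. Mean PLAT, like mean SERPINE2, was lowest in 1-1 KO and highest in 1-2 KO cells, although neither PLAT difference from WT passed. The distance between patterns, the root of the summed squared differences in centred log2(CPM + 0.1), was 0.855 between PLAU and PLAUR, 1.25 between PLAU and PLAT and 4.13 to 5.2 between SERPINE2 and the others. Those nearest to SERPINE2, among 13351 genes averaging 1 CPM or more, were CACNG4, a calcium channel auxiliary subunit, at a distance of 0.338, GNAZ, a G protein alpha subunit, at 0.436, and the zinc finger gene ZNF736 at 0.456. CACNG4 had a mean of 3.25 CPM in WT, 0.402 in 1-1 KO and 5.56 in 1-2 KO cells, GNAZ had 11.7, 1.63 and 17.1, and ZNF736 had 3.63, 0.362 and 7.01. The nearest to PLAU were PPP2R5B at 0.145, SLC10A3 at 0.17 and EDC4 at 0.171. The genes nearest to the other members were ZNF569, LINC02901 and ERI2 at 0.367 to 0.435 from PLAUR and CORO7, ABHD6 and CAMTA2 at 0.328 to 0.417 from PLAT. These distances are descriptions over the 9 libraries of 3 lines.

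Another 43 genes of the system were listed by role, of which 36 could be tested. In 1-1 KO cells 18 rose, 13 fell and 5 did not pass, with a median log2 difference of 0.09 against 0.0108 over all tested genes. In 1-2 KO cells 11 rose, 18 fell and 7 did not pass, with a median of -0.23 against 0.0194. Those called make up 86.1% and 80.6%, compared with 63.4% and 54.4% of all tested genes. No set test was made of these lists, many of whose genes are well expressed liver genes. The role lists below include the 4 genes where they belong. For each list the shares over all tested genes are the same: 32.5% rose and 30.9% fell in 1-1 KO cells, and 28.2% and 26.2% in 1-2 KO cells. With so few genes per list, the counts are descriptions.

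Among the activators and the zymogen, 2 of 6 tested genes rose and 1 fell in 1-1 KO cells, and 2 rose and 3 fell in 1-2 KO cells. PLG, the zymogen itself, had 36, 45 and 39 counts in WT, 0, 1 and 1 in 1-1 KO and 4, 6 and 6 in 1-2 KO libraries. It was at the limit of detection in 1-1 KO libraries and barely above it in 1-2 KO libraries, and its level in WT cells was 1.11 ± 0.182 CPM (SD, n = 3 libraries). PLG was at least 15.4-fold lower in 1-1 KO than in WT cells, against a floor of 3 counts per library (adjusted p = 5.76e-08, edgeR), and 8.26-fold lower in 1-2 KO cells (adjusted p = 1.24e-06). KLKB1, plasma prekallikrein of the contact pathway, which can also activate plasminogen, rose by 1.77 (log2) in 1-1 KO cells and fell by 1.07 in 1-2 KO cells, with means of 1.56 CPM in WT, 5.35 in 1-1 KO and 0.744 in 1-2 KO. F12, the contact factor that activates prekallikrein, had 8.64, 7.5 and 15.4 CPM. It rose by 0.85 in 1-2 KO cells (adjusted p = 7.32e-05, edgeR) and its difference of -0.2 in 1-1 KO cells did not pass (adjusted p = 0.222).

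Of the 3 inhibitors of the activators described here, 2 rose and 1 fell in 1-1 KO cells, and 1 rose and 1 fell in 1-2 KO cells. SERPINE2 was the gene that fell in the former and rose in the latter. SERPINA5, the protein C inhibitor that also binds urokinase, had 185, 179 and 177 CPM in WT, 387 in each 1-1 KO library and 171, 173 and 184 in 1-2 KO libraries. The 1-1 KO libraries were highest, and those of WT and 1-2 KO cells overlapped. SERPINA5 rose by 1.1 (log2) in 1-1 KO cells, from 180 ± 4.2 to 387 ± 0.0747 CPM (SD, n = 3 libraries, adjusted p = 1e-11, edgeR), and differed by -0.03 in 1-2 KO cells (adjusted p = 0.465). Counting alone gives a coefficient of variation of 0.79% in a 1-1 KO library, so the SD of 0.0747 is smaller than counting noise and understates the error. SERPINI1, neuroserpin, an inhibitor of tPA, had 8.39, 9.49 and 9.76 CPM in WT, 19.9, 19 and 19.6 in 1-1 KO and 5.96, 4.95 and 5.76 in 1-2 KO libraries. It rose by 1.08 in 1-1 KO and fell by 0.73 in 1-2 KO cells, the opposite directions to SERPINE2. Per exon union length, SERPINA5 was above SERPINE2 in every line, at 48 RPKM in WT, 103 in 1-1 KO and 46.9 in 1-2 KO cells, and it was so by canonical length as well, at 79.1, 170 and 77.3.

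Of the 4 tested inhibitors and attenuators of plasmin itself, 2 rose and 1 fell in 1-1 KO cells, and 2 rose and 2 fell in 1-2 KO cells. SERPINF2, the alpha-2-antiplasmin gene, rose by 0.54 (log2) in 1-1 KO and by 0.34 in 1-2 KO cells, from 189 CPM in WT to 275 and 239. A2M, alpha-2-macroglobulin, a broad protease trap, rose by 0.56 in 1-1 KO and fell by 0.85 in 1-2 KO cells, with means of 633 CPM in WT, 931 in 1-1 KO and 352 in 1-2 KO. SERPING1, the C1 inhibitor, rose by 0.57 in 1-2 KO cells (adjusted p = 1.19e-06, edgeR), and its -0.05 in 1-1 KO cells did not pass (0.441).

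**Figure D4:**
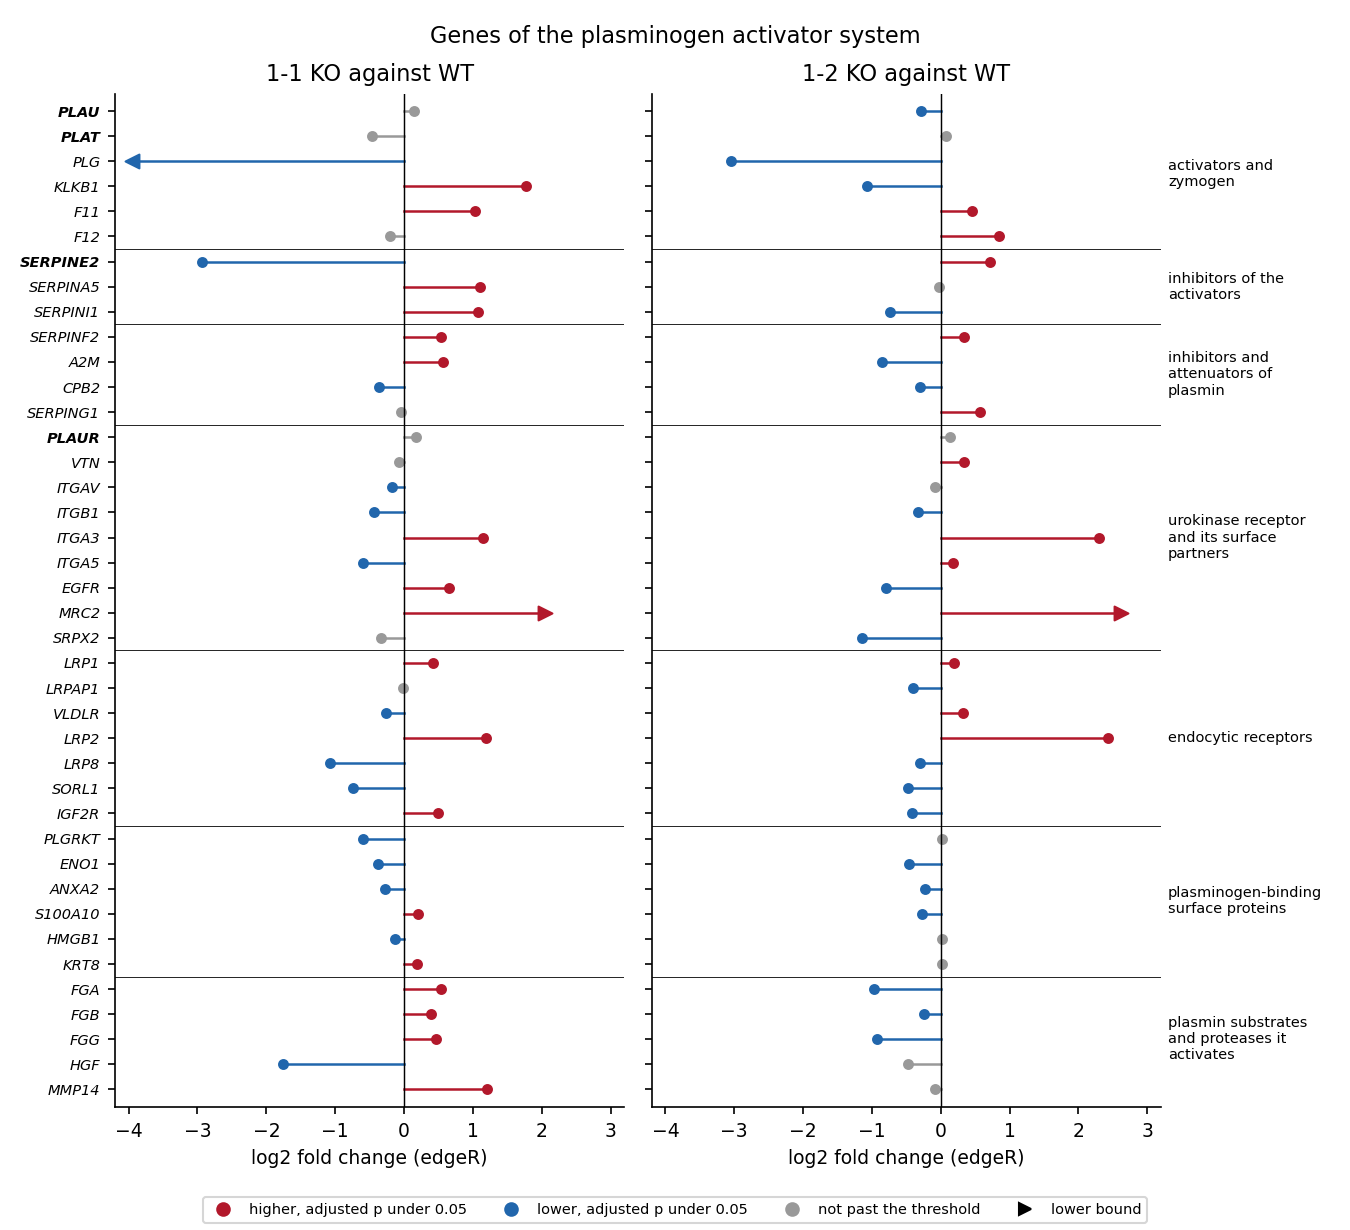
Log2 fold change (horizontal axes, edgeR) of the tested genes of the system, grouped by role, for 1-1 KO against WT (left) and 1-2 KO against WT (right); red and blue points passed an adjusted p of 0.05, grey points did not, bold names are the 4 genes, and triangles are lower bounds for PLG and MRC2, which had at most 3 counts in every library of 1 line. SERPINE2, KLKB1, SERPINI1, A2M, EGFR and IGF2R are among the genes with opposite calls in the knockouts.

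The receptor PLAUR and its surface partners had 9 tested genes, of which 3 rose and 3 fell in 1-1 KO cells and 4 rose and 3 fell in 1-2 KO cells. ITGA3, an integrin alpha subunit that binds the urokinase receptor, rose by 1.15 (log2) in 1-1 KO and by 2.3 in 1-2 KO cells, from 1.79 CPM in WT to 3.95 and 8.76. Its beta partner ITGB1 fell by 0.43 and 0.33. EGFR, the epidermal growth factor receptor, rose by 0.66 in 1-1 KO and fell by 0.79 in 1-2 KO cells, with 251 CPM in WT, 398 in 1-1 KO and 145 in 1-2 KO. MRC2, a collagen receptor that associates with the urokinase receptor, had 0, 2 and 1 counts in WT, 12, 19 and 12 in 1-1 KO and 34, 16 and 13 in 1-2 KO libraries, so it was at least 4.15-fold higher in 1-1 KO and 6.12-fold higher in 1-2 KO than in WT cells against a floor of 3 counts per library.

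Of the 7 endocytic receptors, the proteins that take up inhibitor complexes and their regulators, 3 rose and 3 fell in 1-1 KO cells, and 3 rose and 4 fell in 1-2 KO cells. LRP2, megalin, rose by 1.19 (log2) in 1-1 KO and 2.43 in 1-2 KO cells, from 2.41 CPM in WT to 5.48 and 13. SORL1 fell by 0.74 and 0.48. IGF2R, the mannose 6-phosphate receptor that also binds plasminogen and the urokinase receptor, rose by 0.49 in 1-1 KO and fell by 0.41 in 1-2 KO cells.

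Among 6 surface proteins that bind plasminogen, 2 rose and 4 fell in 1-1 KO cells, and none rose and 3 fell in 1-2 KO cells. ENO1, the glycolytic enolase that also docks plasminogen at the surface, fell by 0.38 (log2) in 1-1 KO and by 0.46 in 1-2 KO cells. ANXA2, the annexin that brings plasminogen and tPA together, fell by 0.28 and 0.23. PLGRKT, a membrane plasminogen receptor, fell by 0.6 in 1-1 KO cells, and its 0.02 in 1-2 KO cells did not pass (adjusted p = 0.838, edgeR).

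Of the 9 listed substrates of plasmin and proteases it activates, 5 were tested. In 1-1 KO cells 4 of these rose and 1 fell, where 32.5% and 30.9% of all tested genes did. In 1-2 KO cells none rose and 3 fell, where 28.2% and 26.2% of all tested genes did. The median log2 difference of the 5 was 0.46 in 1-1 KO and -0.48 in 1-2 KO cells, and it was -1.3 between the knockouts. The 1-2 KO median is the value of HGF, which did not pass (adjusted p = 0.155, edgeR). FGA, a fibrinogen chain, rose by 0.54 in 1-1 KO and fell by 0.97 in 1-2 KO cells, with 1110 CPM in WT, 1620 in 1-1 KO and 565 in 1-2 KO. FGG, another chain of the same protein, rose by 0.46 and fell by 0.93. FGB, the remaining chain, rose by 0.39 and fell by 0.24, so the genes that fell in 1-2 KO cells are all fibrinogen chains. MMP14, a membrane-bound matrix metalloprotease, rose by 1.21 in 1-1 KO cells, from 73.6 to 170 CPM, and its -0.09 in 1-2 KO cells did not pass (adjusted p = 0.164, edgeR). The secreted matrix metalloproteases MMP1, MMP3 and MMP9 had at most 3 counts in every library, so no comparison was possible.

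Markers of other cell types that make these mRNAs were low or unevenly expressed. Of 6 endothelial markers KDR had 0 counts in all 9 libraries, and the summed level was 7.45 to 8.14 CPM in WT, 6.52 to 7.29 in 1-1 KO and 0.855 to 1.1 in 1-2 KO cells, most of it PECAM1. Of 6 leukocyte markers 5 were above 3 counts in at least 1 library, with a sum of 116 to 117, 102 to 108 and 23.6 to 24 CPM, most of it LYZ, and PTPRC, the defining CD45 gene, at 0.153, 0.522 and 0.998 CPM. The 6 fibroblast and stellate cell markers summed to 184 to 195, 279 to 292 and 116 to 124 CPM, most of it LUM in WT and 1-1 KO cells. In 1-2 KO cells LUM fell by 1.34 (log2) whereas COL1A1, COL1A2 and PDGFRB rose by 0.22, 0.98 and 1.87, so the lower sum is that of LUM, and the median of the 5 tested markers was 0.37. All libraries came from cultures of the Huh-7 line and not from tissue, so these markers do not measure shares of cell types. The part of these genes in the results was not tested.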

How the data were processed

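RNA of 3 Huh-7 lines, extracted in triplicate, was sequenced as stranded mRNA libraries in paired reads. The deposited values are raw counts per Ensembl gene, which the authors made with STAR against GRCh38 (Ensembl release 104) and featureCounts; tool versions are not given in the sources used here. Depth is 32384469 to 41782387 counts per library. The 95% intervals come from the edgeR quasi-likelihood fit, which includes the spread between the libraries of a line. Symbols, positions and lengths came from GENCODE 44 (60463 of 60664 identifiers; the other 201 hold 0.0192% of counts). Genes were kept by filterByExpr (minimum count 10, total 15) and tested in edgeR 4.0.16 (R 4.3.3) by the quasi-likelihood test with TMM scaling, 1 fit of 9 libraries and Benjamini-Hochberg adjustment over 17207 genes. CPM and RPKM use the same library sizes. The script was tested on simulated data. DESeq2 1.42.0, other scalings, filters and omissions were alternatives. RefSeq supplied promoter windows. The members and lists were chosen with earlier results of these data known. Named were the 4 members, the 2 genes with the smallest adjusted p per role list and knockout, genes with at most 3 counts everywhere, the 3 nearest patterns per member and overlapping genes. MRC2, FGB, HGF and the single marker genes were named after their values were seen. Of the listed genes of the system, 1 is not reported here.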

Additional observations from a re-analysis of the deposited data

Results flagged for a closer look

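SERPINE2 was the member with opposite calls in the knockouts: it fell in 1-1 KO cells and rose in 1-2 KO cells relative to the same WT libraries, and the direct comparison of the knockouts gave a log2 difference of 3.66 (12.6-fold, adjusted p = 4.31e-16, edgeR). All 1-2 KO libraries lay above all 1-1 KO libraries, and 69.8% of all tested genes did not overlap between the knockouts. PLAU, PLAT and PLAUR gave no such pair of calls. Opposite calls are not particular to SERPINE2: 30.9% of all tested genes fell in 1-1 KO cells and 28.2% rose in 1-2 KO cells. Among the other genes of the system ITGA5 and VLDLR had the same pair of calls. KLKB1, SERPINI1, A2M, EGFR and IGF2R were among those with the reverse pair.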

How the results depend on the processing

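SERPINE2 kept its direction and its call in all 3 comparisons under the 10 alternatives, with log2 differences of -2.96 to -2.77, 0.7 to 0.77 and 3.53 to 3.66 for 1-1 KO against WT, 1-2 KO against WT and 1-2 KO against 1-1 KO, and with each library left out they were -2.98 to -2.92, 0.7 to 0.73 and 3.64 to 3.69. PLAU between the knockouts also held (-0.49 to -0.43, and -0.48 to -0.37 with a library left out). Other PLAU and PLAT calls depended on the setting, and beyond fewer libraries or genes the cause was not tested. PLAU in 1-2 KO cells was no longer called with DESeq2 on all libraries (-0.29) or on the lines compared (-0.29), unscaled library sizes (-0.22), all genes kept (-0.29), edgeR on the lines compared (-0.29), an adjusted p under 0.01 (-0.28) and relative to 50 neighbouring genes (-0.06). PLAT between the knockouts was no longer called with DESeq2 on all libraries (0.55) or on the lines compared (0.54), no filter (0.54), edgeR on the lines compared (0.52), an adjusted p under 0.01 (0.54) and relative to neighbours (0.52). Relative to neighbours PLAU in 1-1 KO cells was called (0.35), and the signs of PLAUR in 1-1 KO (-0.27), PLAUR in 1-2 KO (-0.04), PLAT in 1-2 KO (-0.01) and PLAUR between the knockouts (0.25) turned, none of these 4 called.

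With a library left out, the ranges were -0.36 to -0.22 for PLAU in 1-2 KO cells, 0.07 to 0.2 for PLAU in 1-1 KO cells, -0.64 to -0.37 for PLAT in 1-1 KO cells, -0.09 to 0.2 for PLAT in 1-2 KO cells, 0.4 to 0.71 for PLAT between the knockouts, 0.04 to 0.31 for PLAUR in 1-1 KO cells, -0.03 to 0.26 for PLAUR in 1-2 KO cells and -0.17 to 0.05 for PLAUR between the knockouts. The PLAT sign in 1-2 KO cells turned without WT replicate 2 (-0.09) or 1-2 KO replicate 3 (-0.07), and the PLAUR signs without WT replicate 3 (-0.03), 1-1 KO replicate 1 (0.05) or 1-2 KO replicate 2 (0.03). By canonical length, a setting chosen after seeing the data, the ratio of PLAU to SERPINE2 was 0.0688 in WT, 0.588 in 1-1 KO and 0.0345 in 1-2 KO cells, and that of PLAT to SERPINE2 was 0.0132, 0.0734 and 0.00844. Of the other 43 genes of the system, the number tested changes with the filter. Under the alternatives 28 to 32 were called in 1-1 KO cells, 27 to 30 in 1-2 KO cells and 30 to 32 between the knockouts. Over all genes the main fit called 10915, 9355 and 11229 of 17207. DESeq2 on all libraries called 9922 of 22071, 8393 of 21414 and 10241 of 22728. Such counts are descriptions and not a result about the system.

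Deviations of libraries with the same number in different lines had correlations of -0.391 to 0.183 over 9 pairs, 2 of them above 0.1. Over 18 pairs of different number they were -0.367 to 0.484, 6 of them above 0.1. With 3 libraries per line these correlations cannot exclude a pairing. With the replicate block PLAT between the knockouts was 0.54 (adjusted p = 0.0728, edgeR) and lost its call, and no other call of a member changed. Depth limits PLAT and PLAUR most: at 24 to 47 and 60 to 135 counts per library, small differences could not be detected.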
